A study of Mus musculus with 6 samples.

Results

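The proteasome genes of mouse spleen cells were described here as 1 set, taken as every gene in the count matrix whose symbol starts with Psma, Psmb, Psmc, Psmd, Psme, Psmf or Psmg. The rule found 50 genes of 31053 and did not use any measured value. The counts came from CITE-seq of splenocytes, in which RNA and antibody tags are counted together in single cells, from C57BL/6 male mice: 3-month-old mice given saline, 20-month-old mice given saline, and 20-month-old mice given platelet factor 4 (PF4, a platelet chemokine) at 5 µg/mL. Each group received 8 intravenous injections of 100 µL over 24 days, red blood cells were lysed, and the cells of 5 mice were pooled into a single sample per group, so that the spread between mice cannot be seen. The matrix joins 3 libraries that differ in the suffix of their cell barcodes, and no label, header or method read for this work says which suffix belongs to which group. The libraries are therefore called 1, 2 and 3 after their suffixes, the effects of age and PF4 were not compared, and no p-value is given. Levels are unique molecular identifiers (UMIs, each counting 1 captured molecule) per 1000000 RNA UMIs (CPM). Brackets hold exact 95% Poisson intervals for levels and exact binomial intervals for shares, which reflect counting error alone.

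After cells of 300 to 5000 genes with at most 10% mitochondrial UMIs were kept, libraries 1, 2 and 3 held 4199, 7511 and 8451 cells with medians of 3741, 3625 and 3765 RNA UMIs, and 68 barcode sequences occurred under more than 1 suffix. The cells formed 23 clusters, of which 22 were given a class from marker genes ("B-like" and so on). Cluster 13, led by cell cycle genes and the erythroid gene Hemgn, stayed unnamed. Library 1 supplied 209 of the 271 erythroid-like cells, 243 of the 366 cells of cluster 13, and 134 of the 136 cells of cluster 21, a neutrophil-like cluster led by the granule genes Ngp, Camp and Ltf. Shares that rest on these cells are given by library below.

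The proteasome degrades ubiquitin-tagged proteins in the cytosol and nucleus. Its 20S core is a barrel of alpha and beta rings in which Psmb5, Psmb6 and Psmb7 encode the constitutive catalytic subunits. In immune cells and under interferon these are replaced by the immunosubunits encoded by Psmb8 (LMP7), Psmb9 (LMP2) and Psmb10 (MECL-1), which gives an immunoproteasome that cuts peptides suited to MHC class I. The 19S cap, built from the Psmc ATPases and most Psmd subunits, binds and unfolds tagged proteins. Psme1 and Psme2 encode the PA28 alpha and beta activator, Psme3 the nuclear PA28 gamma activator, and Psme4 the PA200 activator. Psmf1 encodes an inhibitor, and the Psmg genes with Psmd5, Psmd9 and Psmd10 encode assembly chaperones.

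Promoters of 4 catalytic subunits and of Psme1 are shown first, because the exchange of Psmb5 and Psmb6 for Psmb8 and Psmb9 is the comparison that follows, and interferon and stress factors are known to act on such genes. Each is the RefSeq window from 250 bases before to 50 after a transcript start on build GRCm38.p6, written 5′ to 3′ on the strand of the gene. Capitals mark a match on either strand to the interferon response core GAAANNGAA, the STAT site TTCNNNGAA or the antioxidant response core TGACNNNGC, the last of which is read by stress factors of the NRF family. The windows are chr17:34197945-34198244 (plus strand) for Psmb8, chr14:54617946-54618245 (minus strand) for Psmb5, chr17:34187281-34187580 (minus strand) for Psmb9, chr11:70525107-70525406 (plus strand) for Psmb6 and chr14:55578244-55578543 (plus strand) for Psme1.
Psmb8: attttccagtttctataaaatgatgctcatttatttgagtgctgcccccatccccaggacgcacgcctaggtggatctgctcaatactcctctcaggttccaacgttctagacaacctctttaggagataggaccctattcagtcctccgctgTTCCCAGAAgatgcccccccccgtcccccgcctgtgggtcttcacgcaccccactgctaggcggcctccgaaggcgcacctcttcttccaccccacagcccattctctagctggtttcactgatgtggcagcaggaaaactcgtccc
Psmb5: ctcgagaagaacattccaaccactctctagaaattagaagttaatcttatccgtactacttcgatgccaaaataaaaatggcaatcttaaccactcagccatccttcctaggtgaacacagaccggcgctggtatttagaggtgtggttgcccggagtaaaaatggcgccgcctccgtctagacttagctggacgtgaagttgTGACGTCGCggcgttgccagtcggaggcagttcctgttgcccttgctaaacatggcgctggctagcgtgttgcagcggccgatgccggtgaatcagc
Psmb9: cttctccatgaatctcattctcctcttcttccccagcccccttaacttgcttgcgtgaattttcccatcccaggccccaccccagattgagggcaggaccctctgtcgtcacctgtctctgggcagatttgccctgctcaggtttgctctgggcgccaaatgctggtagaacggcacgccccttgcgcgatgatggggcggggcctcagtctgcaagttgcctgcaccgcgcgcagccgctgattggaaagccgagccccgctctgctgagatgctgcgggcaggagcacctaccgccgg
Psmb6: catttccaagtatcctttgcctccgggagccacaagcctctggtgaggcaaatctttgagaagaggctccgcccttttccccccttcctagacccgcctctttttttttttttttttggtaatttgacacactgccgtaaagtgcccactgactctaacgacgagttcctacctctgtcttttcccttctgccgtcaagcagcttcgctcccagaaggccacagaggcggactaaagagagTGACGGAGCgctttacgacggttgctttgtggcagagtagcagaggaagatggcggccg
Psme1: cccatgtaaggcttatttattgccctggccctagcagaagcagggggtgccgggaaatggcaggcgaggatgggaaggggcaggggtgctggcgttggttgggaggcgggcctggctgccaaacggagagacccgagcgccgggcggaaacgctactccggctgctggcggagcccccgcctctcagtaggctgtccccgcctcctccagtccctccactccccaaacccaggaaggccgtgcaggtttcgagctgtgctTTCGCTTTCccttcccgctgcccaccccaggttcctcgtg

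The Psmb8 window held the STAT letters 97 bases before its start, and the Psme1 window held the interferon core 10 bases after its start. The antioxidant core stood 47 bases before the start in Psmb5 and 9 bases before it in Psmb6. The Psmb9 window held none of these motifs, and neither did that of Psmb10. The GENCODE gene models of Psmb8, Psmb9 and Psme1 begin 474, 434 and 371 bases upstream of these RefSeq starts, so each window covers 1 of several annotated starts. A promoter was matched for 42 of the 50 genes, in 45 windows. Of these windows 7 (15.6%) held the interferon core, against 8.56% of 32851 mouse promoters of the same length. The 7 belong to Psmb3, Psmb4, Psmc2, Psmd4, Psmd9, Psme1 and Psmg4, and none is the window of an immunosubunit. The STAT site was in 6.67% of the set's windows and 8.3% of all, and the antioxidant core in 13.3% and 12.4%. These shares are descriptions of letters, not of binding.

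All 50 genes together made up 4959 CPM of the kept cells, and 46 reached the floor of 20 CPM that was set for comparing classes. The 4 below it were Psma8, the testis form of an alpha subunit with 21 UMIs, Psmb11, the thymus-specific catalytic subunit with 3 UMIs, Psmg1 with 15.8 CPM, and Psmc3ip, a meiotic recombination gene that shares only the prefix, with 5.8 CPM. A 3′ UMI is counted once per molecule, so no length scaling was applied. Capture can still differ between genes, so ratios between genes are read across cell classes and not as protein ratios.

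Immunosubunits were counted more than their constitutive counterparts over all kept cells. Psmb8, at chr17:34197721-34201454, stood at 446.7 CPM and Psmb5, at chr14:54614119-54618022, at 114.3 CPM. Psmb9, beside Psmb8 in the MHC region at chr17:34181987-34187764, stood at 204.8 CPM and Psmb6, at chr11:70525367-70527858, at 109.9 CPM. Psmb10, at chr8:105935735-105938444, stood at 117.3 CPM and Psmb7, at chr2:38588036-38644087, at 50.8 CPM (spans from the mm10 annotation). Among the activators, Psme1 reached 447.5 CPM and Psme2 225 CPM, both well above Psme3 at 51.5 and Psme4 at 52.5 CPM. The inhibitor gene Psmf1 was at 22.7 CPM.

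The structural genes overlapped in level with the catalytic genes. In the alpha ring they ran from 79.1 CPM for Psma6 to 271.5 CPM for Psma7, and among the non-catalytic beta subunits from 96.4 CPM for Psmb2 to 223.5 CPM for Psmb1. The 6 ATPases of the 19S cap ran from 48.4 CPM for Psmc4 to 104.5 CPM for Psmc3, and its 11 non-ATPase subunits from 46.8 CPM for Psmd3 to 121.9 CPM for Psmd4, a ubiquitin receptor. Among the chaperone genes, Psmd5, Psmd9 and Psmd10 lay between 29.8 and 31.8 CPM and the Psmg genes between 15.8 CPM for Psmg1 and 68.9 CPM for Psmg4. Psme2b, an intronless copy of Psme2 at 38.9 CPM, is near-identical to its parent, so the split of reads between them is uncertain.

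Summed over the set, the genes were highest in dendritic-like cells, at 8301, 6895 and 6060 CPM in libraries 1, 2 and 3, followed by monocyte-like cells at 7390, 5683 and 5547 CPM. B-like cells held 5424, 4782 and 4492 CPM. Neutrophil-like cells held 2976, 2805 and 3067 CPM, and erythroid-like cells 1599, 1399 and 1446 CPM, both below B-like cells in each library. In this CPM the very abundant transcripts of a class lower all its other genes. Without the mitochondrial, ribosomal protein, haemoglobin, immunoglobulin and S100a8 and S100a9 UMIs, the erythroid-like sum over all libraries was 5258 CPM and the neutrophil-like sum 4125 CPM, against 6792 CPM in B-like cells and 8832 CPM in plasma-like cells.

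**Figure D1:**
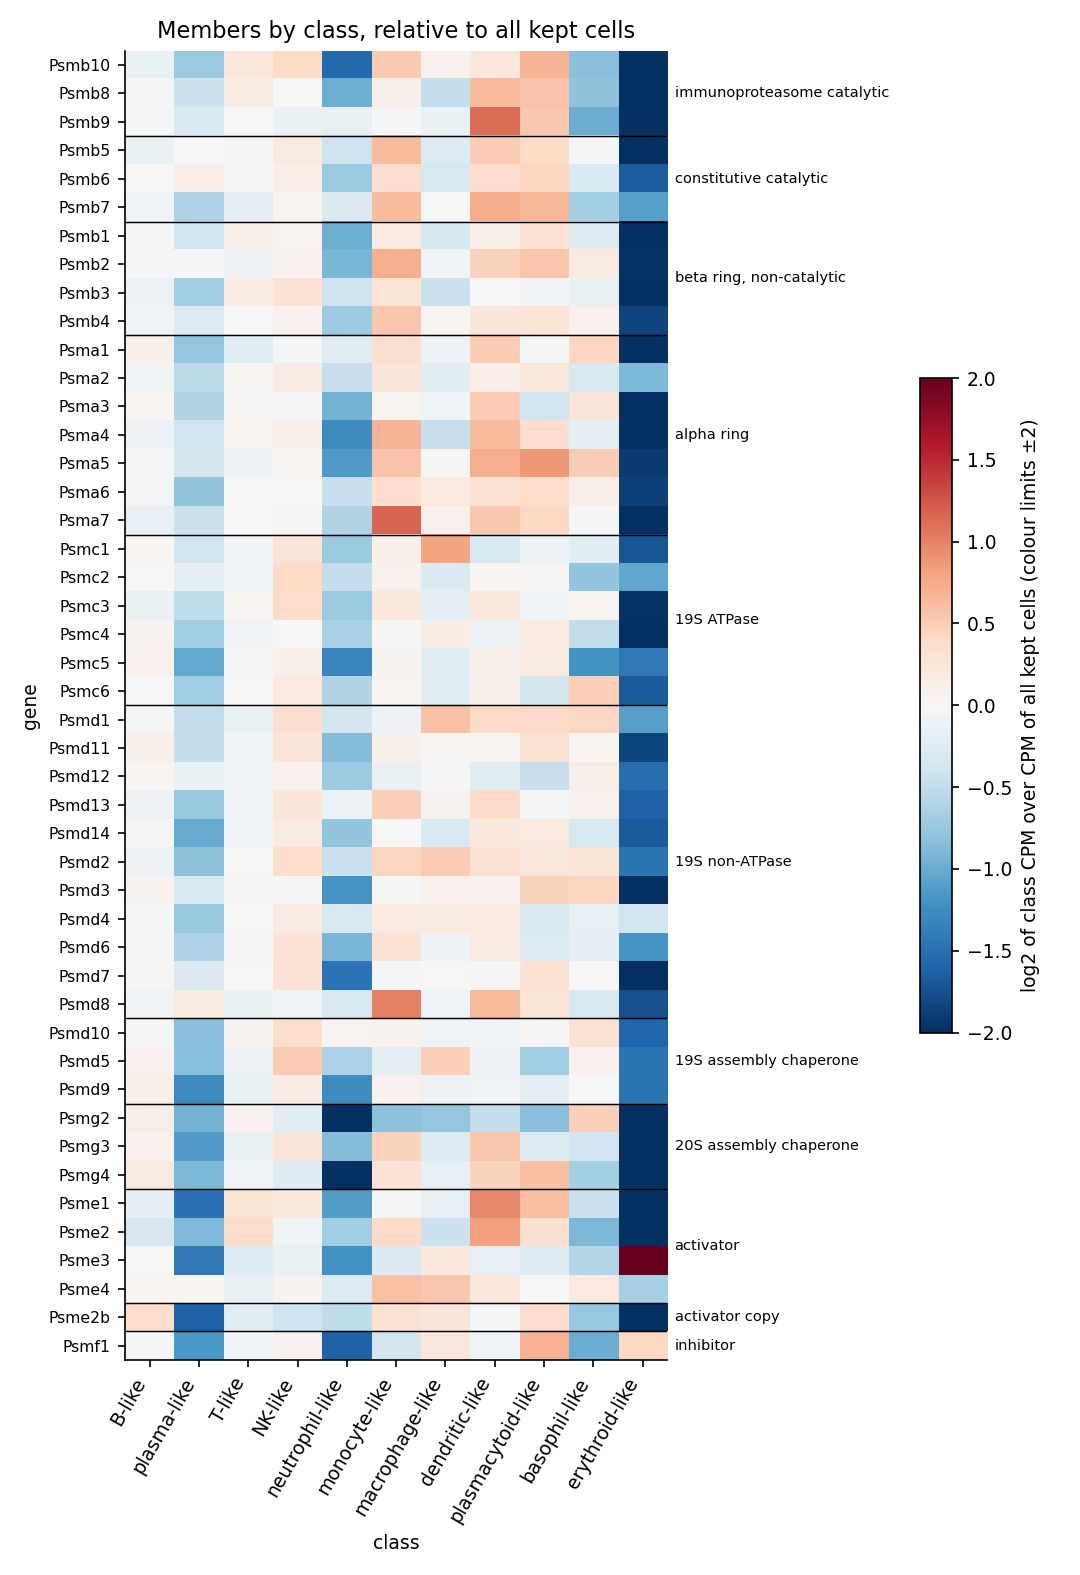
Level of each gene of at least 20 CPM (rows, grouped by role) in each class (columns), as log2 of the class CPM over the CPM of all kept cells, with colours limited at ±2. Psme3 is the row that is high in the erythroid-like column, where the other rows are mostly low, and Psmb9, Psme1 and Psme2 are high in the dendritic-like column.

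Each class was compared with B-like cells, the most numerous class, and a gene was called higher or lower where its CPM ratio passed 1.5-fold in each of the 3 libraries. The share of all 6129 genes of at least 20 CPM that were called the same way is given as background. Lymphoid classes differed little in the set. T-like cells had 1 of 46 genes higher, Psme2 (background 8.3%), and 0 lower (background 12.4%). NK-like cells had 0 higher (background 11.4%) and 0 lower (background 9.07%). Psme2, the beta part of PA28, was at 341.4, 291 and 262.8 CPM in the T-like cells of libraries 1, 2 and 3 and at 213, 174.2 and 168.5 CPM in the B-like cells, so every T-like value lay above every B-like value. Its partner Psme1 was at 596.5, 520.3 and 538 CPM in T-like and 414.6, 372.6 and 410.8 CPM in B-like cells, below the 1.5-fold limit.

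Dendritic-like cells had 6 of 46 genes higher (background 10.3%) and 0 lower (background 16.1%). They were Psmb8, Psmb9, Psme1, Psme2 and the alpha subunits Psma5 and Psma7. Psmb9 was at 593.6, 427.8 and 383 CPM in libraries 1, 2 and 3, against 238.2, 208.6 and 175.6 CPM in B-like cells. Psme1 was at 956.2, 833.5 and 852 CPM, and Psmb8 at 983.3, 727.7 and 541 CPM, against 558.5, 459 and 356.5 CPM for Psmb8 in B-like cells. Psmb10, the immunosubunit paired with Psmb7, was not called, with 147.9, 124.4 and 137.1 CPM in dendritic-like and 123.9, 108.9 and 99.3 CPM in B-like cells. The median log2 ratio over the 46 genes was 0.27, and over all genes −0.17. Without the abundant families Psmb8 and Psma7 fell under the limit, and Psma5, Psme1, Psme2 and Psmb9 stayed past it. On that scale 4 of 46 genes were higher and 0 lower, against 9.18% and 18.3% of all genes. The share called higher, 13% on the full scale, lay near the background on both scales.

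Monocyte-like cells had 2 genes higher, Psma7 and Psmd8 (background 15.6%), and 1 lower, the assembly chaperone Psmg2 (background 18.6%). Psma7, an outer-ring subunit, was at 694.4, 530 and 606.6 CPM, more than in any other class, and at 275, 230.6 and 238.8 CPM in B-like cells. Psmd8, a 19S subunit, was at 245, 196 and 150.6 CPM against 108.4, 93.8 and 84.1 CPM. Macrophage-like cells had 1 gene higher, the ATPase Psmc1 (background 10.1%), and 0 lower (background 8.44%). Psmc1 was at 80.7, 94.1 and 128.6 CPM in these cells and 52.4, 55.3 and 63.7 CPM in B-like cells, and it was not called without the abundant families.

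Neutrophil-like cells had 0 genes higher (background 10.6%) and 18 of 46 lower (background 35.5%), a share of 39.1% that lay near the background. The 18 included genes of the core, the cap, the activators and the chaperones, among them Psmb8 and Psmb10, Psmb6, Psme1, Psme3 and Psmf1. Psmg4, a chaperone of 20S assembly, was at 12.6, 17.4 and 24.5 CPM against 80.1, 80.2 and 74.9 CPM in B-like cells. Psmb10 was at 38.8, 14.5 and 60.3 CPM, with only 5 UMIs in library 2, against 123.9, 108.9 and 99.3 CPM. Psmb9 was not called, with 200.8, 145 and 156.5 CPM. By the median, neutrophil-like cells were shallow, with 2298.5 UMIs against 3166.5 in B-like cells. The fold of a gene at these levels carries a wide counting error. The class joins cluster 9 (median 2163 UMIs) and cluster 21 (median 8511.5 UMIs), and 134 of the 136 cells of cluster 21 came from library 1. The calls therefore rest on a different mixture of cells in library 1 than in libraries 2 and 3.

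Plasma-like cells had 0 genes higher (background 3.44%) and 12 of 46 lower (background 63.2%), a smaller share (26.1%) than among all genes. The scale decided these counts. Without the abundant families, which include the immunoglobulins, 5 of the 46 were higher (Psmb2, Psmb5, Psmb6, Psmd8 and Psme4) and 1 lower (Psme2b), with 9.26% of genes higher and 23.2% lower. On that scale Psmb5 stood at 331, 285.8 and 288 CPM in libraries 1, 2 and 3, against 186, 152 and 129.5 CPM in B-like cells. Psme1 went the other way, at 375.1, 443.5 and 422.2 CPM against 599.6, 529.5 and 581.3 CPM, with no overlap between the classes. The median log2 ratio over the set was −0.58 on the full scale and 0.28 without the families, with −1.27 and −0.39 over all genes, so on both scales the set's median lay above that of all genes.

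The share of immunosubunits among all catalytic UMIs does not depend on the total used for scaling. Over all kept cells Psmb8, Psmb9 and Psmb10 made up 73.7% of the UMIs of the 6 catalytic genes, and this share was 73.3%, 73.8% and 73.7% in libraries 1, 2 and 3. By class the order ran from dendritic-like (76.7% [75.4–78.0]) and T-like cells (75.8% [75.4–76.3]) through plasmacytoid-like (75.2% [71.2–78.9]), B-like (73.9% [73.4–74.3]), macrophage-like (72.9% [69.99–75.8]) and NK-like cells (72.2% [70.2–74.1]) to neutrophil-like (70.1% [67.8–72.2], and 69.2%, 71.4% and 72.6% by library), monocyte-like (68.4% [67.0–69.7]) and plasma-like cells (67.9% [65.6–70.1]), with basophil-like (64.6% [58.1–70.8]) and erythroid-like cells (58.8% [52.7–64.7]) last. The erythroid-like value depended on the clustering and was 31.8% at resolution 1.2. Neighbours in this order had overlapping intervals, whereas those of B-like and T-like cells did not overlap. By library T-like cells stood at 79.3%, 74.9% and 74.9% and B-like cells at 74.7%, 74.2% and 73.0%, with the widest gap in library 1 and overlapping intervals in library 2. Plasma-like cells, at 68.4%, 68.1% and 67.2%, were below B-like cells in each library, and so were monocyte-like cells at 69.1%, 64.2% and 71.0%.

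**Figure D2:**
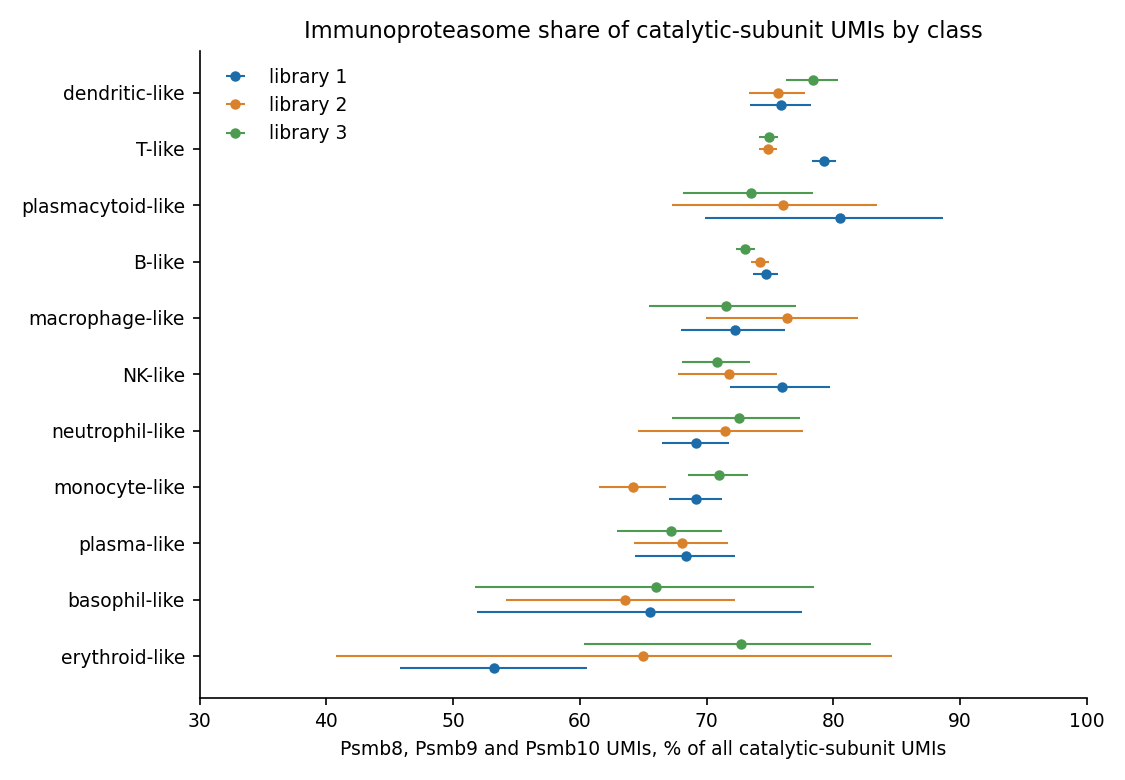
Share of Psmb8, Psmb9 and Psmb10 among the UMIs of the 6 catalytic genes (x axis, in percent) for each class, with a point per library and exact 95% binomial intervals (counting error only). B-like, T-like, NK-like and dendritic-like points sit above 70%, and the erythroid-like points of libraries 1, 2 and 3 spread over 53.2%, 65.0% and 72.7%.

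The 3 subunit pairs did not move together between classes. Psmb8 made up 80.6% of the Psmb8 and Psmb5 UMIs in B-like cells, 81.2% in T-like and 81.0% in dendritic-like cells, but 73.1% in monocyte-like cells and 74.3% in plasma-like cells. Psmb9 made up 64.6% of its pair with Psmb6 in B-like cells and 76.1% [73.9–78.3] in dendritic-like and 73.7% [70.3–77.0] in neutrophil-like cells. Psmb10 showed another order against Psmb7. Its share was 75.5% [74.3–76.6] in T-like cells and 69.0% [67.8–70.2] in B-like cells, but 61.5% [57.4–65.5] in dendritic-like and 49.1% [42.3–55.9] in neutrophil-like cells. By library the Psmb10 share was 49.0%, 21.7% (of 23 UMIs) and 61.5% in neutrophil-like cells, 57.7%, 57.2% and 66.9% in dendritic-like cells and 69.4%, 70.1% and 67.8% in B-like cells. In library 3 the intervals of both classes overlapped that of B-like cells. The Psmb9 share was above the B-like one in each library, at 73.7%, 73.5% and 74.1% in neutrophil-like and 75.1%, 74.2% and 78.6% in dendritic-like cells against 64.8%, 64.2% and 65.1%. The neutrophil-like intervals overlapped those of B-like cells in libraries 2 and 3, on 68 and 112 UMIs. The dendritic-like intervals lay above them in each library.

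Clusters of the same class also differed. Cluster 8, T-like cells led by Gzmk, had the highest immunosubunit share of any cluster when libraries were pooled, 80.6% [79.4–81.7], and 82.5%, 79.6% and 76.9% in libraries 1, 2 and 3. It was first in no single library, where clusters 9 (83.0%), 6 (79.7%) and 19 (82.2%) led in turn. The other T-like clusters held 74.1% to 76.3%. Psmb8 was at 996.6, 685.8 and 603 CPM in cluster 8 and at 557.5, 467.4 and 380.1 CPM in cluster 3, T-like cells led by Ly6c1 and Igfbp4. The cluster 8 value was the higher in each library, with a ratio of 1.79, 1.47 and 1.59 that missed the 1.5-fold limit in library 2. Against cluster 3, 0 of 46 genes were higher (background 7.15%) and 0 lower (background 2.02%). The set's median log2 ratio was 0.24 and that of all genes 0.17, and 0.02 and −0.04 without the abundant families. Cluster 3 had the lowest pooled Psmb8 level of the T-like clusters, 419.8 CPM, against 572.5 CPM in cluster 7 and 798.6 CPM in cluster 8. Psmb5 was at 141.1, 122.7 and 124.9 CPM against 128, 105.7 and 95.1 CPM. Among B-like cells, cluster 6, led by Bhlhe41 and Zbtb32 (known from B1 cells), held 76.9% [75.9–77.9], with 74.8%, 79.7% and 74.1% by library. In that cluster Psmd14, the deubiquitinase of the 19S cap, was at 186.4, 79.6 and 98.5 CPM against 62.8, 57.9 and 53.2 CPM in cluster 1, the main B-like cluster. The share in cluster 1 was 73.2% [72.7–73.8], and 74.8%, 73.1% and 72.8% by library, so it was level with cluster 6 in library 1 and the intervals were apart only in library 2. Cluster 2, a B-like cluster of low depth, held 76.4% [74.9–77.9], about as much as cluster 6.

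**Figure D3:**
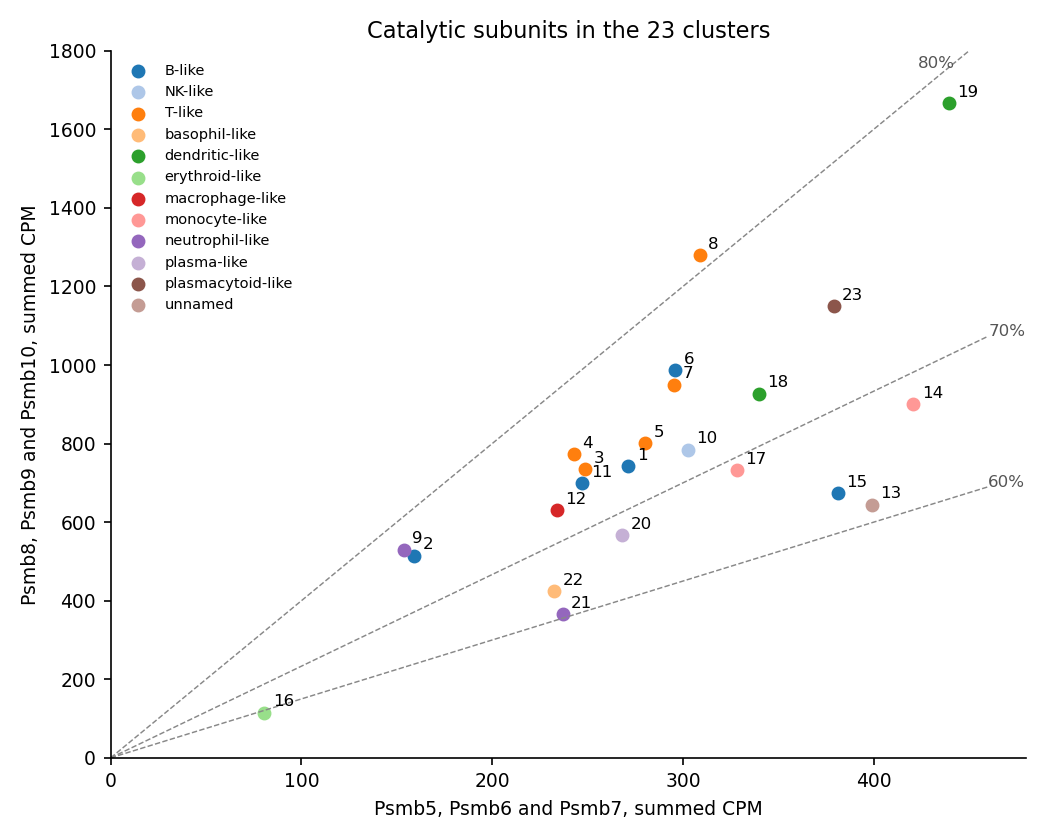
Summed CPM of the 3 constitutive catalytic genes (x axis) and of the 3 immunosubunit genes (y axis) in each of the 23 clusters, coloured by class and numbered, with dashed lines at immunosubunit shares of 60, 70 and 80%. Clusters 8 and 19 lie high, cluster 15 lies to the right of the other B-like clusters at a height within theirs, and cluster 16 lies near the origin.

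Cluster 15, B-like cells led by the activation genes Egr1, Egr3, Nfkbid, Nr4a1 and Myc, had the lowest share among B-like clusters, 63.9% [61.3–66.4], with 63.9%, 63.6% and 64.2% in the 3 libraries. Against cluster 1 it had 6 of 46 genes higher (background 6.66%) and 0 lower (background 5.42%). Psme2 was at 421, 390.1 and 322.9 CPM in libraries 1, 2 and 3 of cluster 15, against 173.6, 169.8 and 156.7 CPM in cluster 1. Psme3 was at 99.1, 115.9 and 118.8 CPM against 44.6, 52 and 51.5 CPM. The values of both activator genes did not overlap between the clusters. The other 4 were the core subunits Psma4, Psma5, Psma7 and Psmb2. Psmb8 was not called, at 544.8, 428.8 and 314.6 CPM against 543.3, 463.3 and 380.9 CPM. Constitutive Psmb5 and Psmb6 were each higher in cluster 15 in every library but passed 1.5-fold only in library 1, with Psmb6 at 213, 178.5 and 118.8 CPM against 129, 123.6 and 100.4 CPM. Summed, the 3 constitutive genes were at 515.1, 410.4 and 309.5 CPM in cluster 15 and 305.6, 283.9 and 249.8 CPM in cluster 1. The 3 immunosubunits were at 911.3, 715.8 and 555.5 CPM against 908.1, 769.9 and 668.7 CPM, level in library 1 and lower in library 3, where the Psmb8 intervals did not overlap. The median log2 ratio over the 46 genes was 0.47, and over all genes −0.06.

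The 2 dendritic-like clusters differed from each other. Cluster 19, led by Xcr1 and Clec9a (markers of type 1 dendritic cells, which present antigen on MHC class I), held a share of 79.1% [77.5–80.7], and cluster 18, led by Cd209a, Clec10a and Flt3, held 73.2% [71.0–75.2]. By library these were 78.0%, 77.1% and 82.2% against 72.3%, 73.1% and 73.8%, so cluster 19 was the higher in each. The intervals of the 2 clusters overlapped in libraries 1 and 2 and were apart in library 3. Cluster 19 had 4 of 46 genes higher (background 2.82%), Psmb8, Psmb9, Psme1 and Psme2, and 1 lower, the copy Psme2b (background 7.2%). Psme1 was at 1300, 1116 and 1133 CPM in cluster 19 and at 627.7, 548.7 and 634.7 CPM in cluster 18. Psmb9 was at 846, 560.2 and 542.6 CPM against 352.6, 294.2 and 259.5 CPM. The cluster 18 values of Psmb9 exceeded those of B-like cells by less than 1.5-fold in each library, as did those of Psmb8. Psmb10 was not called, with 140.4, 127.3 and 155.3 CPM against 155.2, 121.4 and 123.1 CPM. These 2 clusters held 168 and 206 cells.

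In monocyte-like cells, cluster 17, led by Ace, Cd300e and Treml4 (genes of non-classical monocytes), had 0 genes higher (background 5.66%) and 1 lower (background 3.51%) than cluster 14, led by Fn1, F13a1 and Vcan. The gene was Psmb10, at 138.5, 81.2 and 113.4 CPM against 237.3, 143.6 and 189.1 CPM. Neutrophil-like cells split by cluster in the immunosubunit share, with 77.5% [74.8–80.1] in cluster 9, led by Csf3r and Cxcr2, and 60.7% [57.1–64.1] in cluster 21, led by granule genes. As cluster 21 came almost entirely from library 1, its difference from cluster 9 can be read only there, where the shares were 60.7% and 83.0%. In libraries 2 and 3 cluster 9 stood at 72.2% and 72.6%.

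Erythroid-like cells had 1 of 46 genes higher (background 2.1%) and 35 lower (background 56.1%), a share of 76.1%. Most of these calls depended on the scale. Without the abundant families 2 genes were higher (Psme3 and Psmf1) and 3 lower (Psmb1, Psmb5 and Psmd11), with 4.36% and 9.25% of genes. The median log2 ratio of the set was then −0.53 and that of all genes −0.45. Psme3 was higher on both scales. It stood at 264.5, 174.9 and 224.8 CPM in libraries 1, 2 and 3, against 50, 50.8 and 53 CPM in B-like cells, and at 850.7, 743.1 and 873.8 CPM against 72.3, 72.2 and 75 CPM without the families. Library 2 held only 15 of these cells, with 14 Psme3 UMIs. The nuclear activator was the only gene of the set called higher on both scales, while Psme1 was at 65.2, 149.9 and 164.8 CPM against 414.6, 372.6 and 410.8 CPM in B-like cells on the full scale.

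The catalytic genes were sparse in erythroid-like cells, with 272 UMIs over 271 cells, and the share differed between libraries (53.2%, 65.0% and 72.7%). The antibody to TER-119, a red cell surface antigen, separated positive cells in library 1 only, 481 of 4199. A gate on them was examined after that had been seen. The gate left out cells that were also positive for the leukocyte antigens B220, CD4, CD8a or Ly-6G. Cells outside the gate can therefore include TER-119-positive cells. The part of this exclusion in the gap between the shares inside and outside the gate was not tested. The 358 gated cells had an immunosubunit share of 23.03% [19.8–26.5], from 149 immunosubunit and 498 constitutive UMIs. Gated cells of cluster 13 held 15.7% [12.6–19.2] and those of cluster 16, the erythroid-like cluster, 29.4% [20.0–40.3]. The 11 gated cells of other clusters held 65.3% [53.1–76.1]. Cells of library 1 outside the gate held 63.8% [60.9–66.6] in cluster 13 and 73.3% [63.5–81.6] in cluster 16. In the gated cells of cluster 13 Psmb8 was at 25.7 CPM and Psmb5 at 110.6 CPM, whereas in the cells of cluster 13 outside the gate they were at 478.7 and 207.1 CPM. Their levels of Mki67, a proliferation gene, were 4828 and 2133 CPM, and haemoglobin took 31.8% and 10% of their UMIs. Free RNA in droplets also gives UMIs of expressed genes such as Psmb8, and its part in the remaining immunosubunit UMIs was not tested. In the gate as a whole Psme3 was at 197.8 CPM, above Psme1 at 72.3 and Psme2 at 48.4 CPM.

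**Figure D4:**
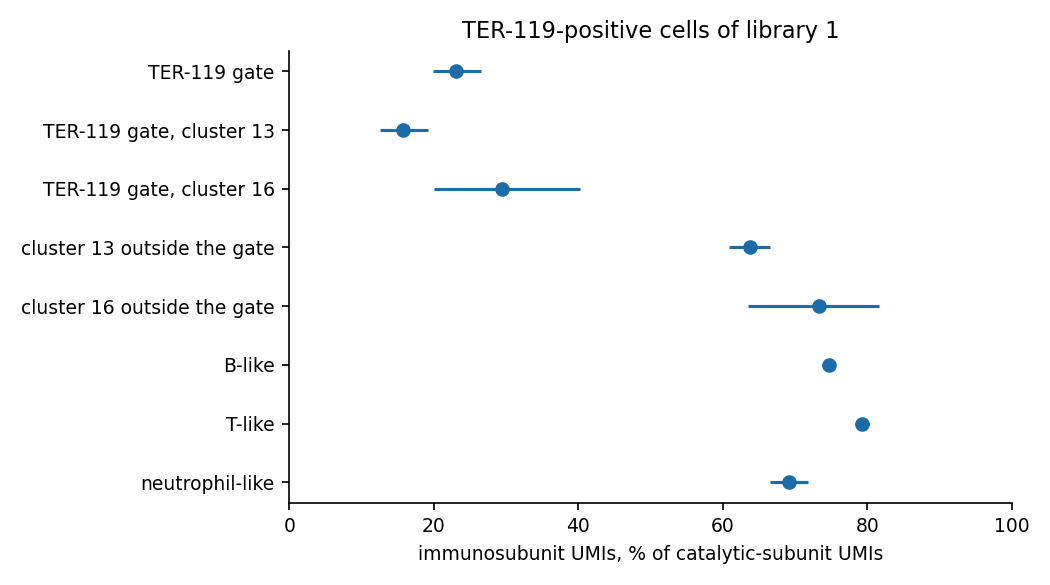
Immunosubunit share of catalytic UMIs (x axis, in percent) in gated cells of library 1, with exact 95% binomial intervals. Gated cells were positive for TER-119 and not for B220, CD4, CD8a or Ly-6G. Also shown are cells of clusters 13 and 16 outside the gate, and B-like, T-like and neutrophil-like cells of the same library. The gate as a whole and its cells of clusters 13 and 16 lie at 15.7% to 29.4%, and all other sets shown lie above 60%. The 11 gated cells of other clusters (65.3%) are not shown.

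Cells that carried the interferon response were compared with the rest of their class, after each cell had been thinned to 1000 UMIs and split by 10 interferon-induced genes such as Ifit1, Isg15 and Rsad2 (3 or more UMIs against 0). T-like cells of the interferon state had a share of 81.7% [78.7–84.4] over 97 cells, and the rest 75.3% [74.7–75.8], with 87.7%, 78.9% and 80.7% against 79.0%, 74.4% and 74.1% by library. In B-like cells the shares were 77.6% [72.7–82.0] over 76 cells and 73.5% [73.0–74.0], intervals that overlap. Psmb8 was at 741.7 [667.5–821.8] CPM in the T-like state and 484.2 [475.3–493.2] CPM in the rest, and its ratio missed 1.5-fold in library 2. Psme2b was the only gene of the set called higher in T-like cells (background 1.84%), with 75.2 CPM against 31.1 CPM, and 0 were lower (background 0.441%). In B-like cells 0 were higher (background 2.01%) and 1 was lower, Psmd1 (background 0.571%), on 5 UMIs in the state. Psmb9 was at 334.4 [266.0–415.1] CPM in the B-like state and 197.8 [193.0–202.8] CPM in the rest, with ratios of 1.3, 1.73 and 1.9 by library.

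Between libraries the set was even over all kept cells. The highest library exceeded the lowest by 1.5-fold for 0 of 36 genes of at least 50 CPM (background 16.8%). Within B-like cells 2 of 36 passed, Psmb8 and Psmd14 (background 4.15%), and within T-like cells 1 of 33, Psmb8 (background 7.06%). Psmb8 stood at 718.5, 495.3 and 416.3 CPM in the T-like cells of libraries 1, 2 and 3. Its order was the same in all 10 B-like and T-like clusters, with library 1 highest and library 3 lowest, and in each of them the interval of library 1 lay above that of library 3. Psmb5 had this order in 7 of the 10 clusters, Psmd14 in 4 and Psme1 in 1. These clusters are parts of the classes in which Psmb8 had already passed the limit, so they are not separate support for it. In the whole classes, 25.4% of all genes fell in this order in B-like cells and 25.9% in T-like cells. The share of all genes with this order in all 10 clusters was not counted. For Psmd14 the interval of library 1 lay above that of library 3 in 1 cluster only, cluster 6. There it stood at 186.4, 79.6 and 98.5 CPM, against 62.8, 57.9 and 53.2 CPM in cluster 1, the main B-like cluster. Many genes of the set shared the direction more weakly. In B-like cells 37 of 46 were highest in library 1, as were 35.9% of all genes, and in T-like cells 33 of 46, as were 39.5% of all genes. The set's median log2 ratio of library 1 to library 3 was 0.25 in B-like and 0.21 in T-like cells, against −0.05 and −0.02 over all genes. As each library is 1 pool of mice, a difference between groups and one between libraries cannot be told apart.

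**Figure D5:**
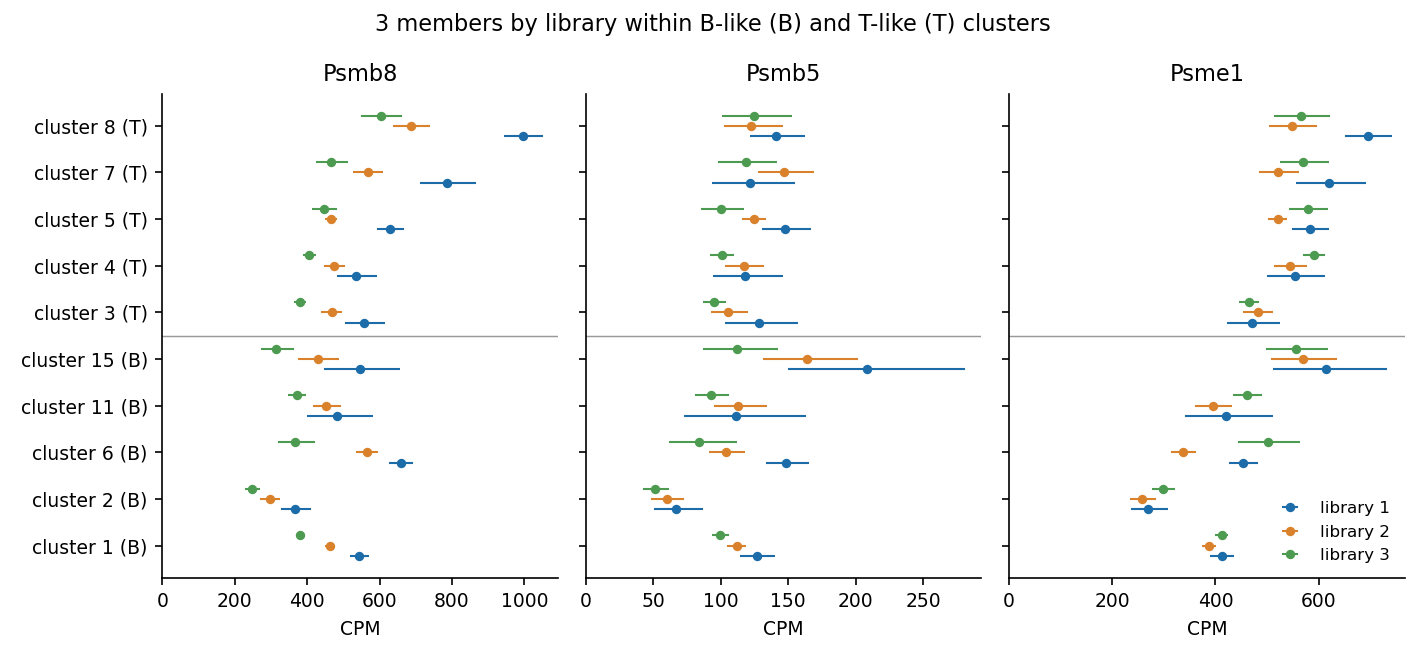
CPM of Psmb8, Psmb5 and Psme1 (x axes) in each B-like (B) and T-like (T) cluster, with a point per library and exact 95% Poisson intervals (counting error only). Psmb8 is highest in library 1 and lowest in library 3 in every cluster shown, which Psme1 is not.

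Proteins that bind, assemble or regulate the proteasome were followed as a list of partners outside the set. Of 11 partners of at least 20 CPM, 3 were higher in dendritic-like than in B-like cells, against 10.3% of all genes. In monocyte-like cells 3 were higher, against 15.6% of all genes, and 1 lower, Ube3c, against 18.6%. The 3 higher were Pomp, Sem1 and Ddi2 in both classes. Pomp, which drives assembly of the 20S core, was at 653.1, 549.9 and 466.6 CPM in dendritic-like cells, against 169.1, 157.7 and 150.5 CPM in B-like cells, and at 513.3, 434.6 and 412.9 CPM in monocyte-like cells. Sem1, a small 19S subunit that also serves in other complexes, was at 1255, 986.2 and 818.2 CPM in neutrophil-like cells against 327.5, 326 and 318 CPM in B-like cells. It was the 1 partner higher there, where 10.6% of all genes were, while Usp14, Nfe2l1 and Ube3c were lower, where 35.5% of all genes were. T-like cells had 0 of 11 partners called, where 8.3% of all genes were higher and 12.4% lower. NK-like cells also had 0, where 11.4% were higher and 9.07% lower. The erythroid-like class had 7 lower, where 56.1% of all genes were. In plasma-like cells 5 were lower, where 63.2% of all genes were, and calls of the set in both classes depended on the scale. Pomp was the 1 called higher in macrophage-like cells, where 10.1% of all genes were.

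Of 13 genes of antigen processing and its regulators, 6 were higher in NK-like cells (Tapbpl, Erap1, Pdia3, B2m, Nlrc5 and Irf1) and 0 lower, against 11.4% and 9.07% of all genes, while 0 genes of the proteasome set were called there. Nlrc5, the transactivator of MHC class I genes, was at 85.9, 50.5 and 62.1 CPM in NK-like and 24.6, 32.8 and 31.7 CPM in B-like cells. In dendritic-like cells 2 were higher (10.3% of all genes), Pdia3 and Irf8, and Tap1, which pumps peptides into the endoplasmic reticulum, was at 268.8, 243 and 209.9 CPM against 160.4, 166.8 and 176.2 CPM. In neutrophil-like cells, where 10.6% of all genes were higher and 35.5% lower, 1 was higher, Irf1 at 203, 194.3 and 243.2 CPM against 99.4, 88.7 and 99.7 CPM, and 5 were lower. Erythroid-like cells had 11 of the 13 lower, against 56.1% of all genes. Plasma-like cells had 3 higher (Calr, Pdia3 and B2m), against 3.44%, and 4 lower, against 63.2%. The abundant families were not left out for this list.

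Over the 23 clusters the genes most like the mean log2 CPM of the 3 immunosubunits, among 3125 genes of at least 50 CPM, were taken by Pearson correlation. Besides Psmb8, Psmb9 and Psmb10, the 10 with the highest r, of which 4 belong to the set, were Rtraf (r = 0.91), Psme1 (0.91), Psmb1 (0.90), Psme2 (0.90), Psma4 (0.89), Ik (0.88), Anapc11 (0.88), Arl6ip4 (0.88), Ndufb5 (0.88) and Atp5e (0.88). Psmb5 had r = 0.83, Psmb6 0.79 and Psmb7 0.68, Tap1 0.81 and Pomp 0.78, while Psme3 had r = −0.33. The clusters share libraries, depth and the low levels of cluster 16, so these values are descriptions over clusters and carry no p.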

How the data were processed

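Counts of RNA and of 34 antibody tags per cell barcode were deposited by the authors as 1 joint matrix, made with Cell Ranger (5.0.1 per the file headers) on mm10. The submitters' processing notes also name Seurat. Antibody counts served only to gate cells by Ashman's D above 2. The 6 samples in the labels are the 3 groups, each with an RNA and an antibody library.

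Barcodes of 300 to 5000 genes and at most 10% mitochondrial UMIs were kept, 20161 of 29005. Counts were scaled to 10000 per cell, and 2000 variable genes, 20 principal components and 20 neighbours entered Louvain clustering at resolution 0.8. The set, the partners, the antigen processing genes and the interferon-induced genes were kept out of the variable genes. A cluster took a class name where more than 60% of the cells had their top marker score in that class, with at least 3 markers detected. The names are rebuilt from markers and may differ from the study's. Doublets were limited only by the 5000 genes, and leaving out cells marked by Scrublet is an alternative.

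UMIs were summed by class and library. A ratio counted as higher or lower where it passed 1.5-fold in each of the 3 libraries, over genes of at least 20 CPM, with 3 counts in place of 0. No test was run, since the 3 libraries are pools from different groups and not replicates of 1 group. The ratio calls were tried on simulated counts for dendritic-like against B-like cells. There 98 of 100 genes raised 3-fold and 96 of 100 lowered 3-fold were recovered, and 4 of 5929 unchanged genes were called. The simulated counts held counting error alone, with the same rates in all 3 libraries. The values quoted do not cover real spread between libraries, changes near 1.5-fold or classes of fewer UMIs, such as erythroid-like cells. The simulation was also run with T-like and plasmacytoid-like totals, and those results are not given here.

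The genes named are the 6 catalytic genes, the activators, the inhibitor, the most counted, least counted and most class-dependent gene of each other role, 2 lists outside the set and the 10 genes most alike. Genes named for passing a fold in a comparison were added after their values were seen. The members and lists were chosen with earlier results of these data known. Alternatives changed the fold, floor, scale, depth, clustering and libraries. Tools were Python 3.11.15, NumPy 2.4.6, SciPy 1.17.1, pandas 2.3.3, scikit-learn 1.9.0, igraph 0.11.9, scanpy 1.11.5 and matplotlib 3.10.9.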

Additional observations from a re-analysis of the deposited data

How the results depend on the processing

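Of 123 alternative values of the immunosubunit share, 103 moved by less than their counting interval, and of 160 alternative counts of genes past the fold, 113 stayed within 1.5 times. Thinned to 1000 UMIs per cell, the share was 74.489% in B-like, 76.575% in T-like, 75.422% in neutrophil-like and 78.378% in dendritic-like cells. Leaving out a library gave 73.651% to 74.365% in B-like and 74.892% to 76.508% in T-like cells. Without cluster 21, a choice made after seeing the data, the neutrophil-like share was 77.526%. The genes lower in neutrophil-like cells numbered 30 under a looser fold limit and 6 at 2-fold. Those higher in dendritic-like cells numbered 12 under that looser limit, 2 at 2-fold, and 6 to 10 when a library was left out, with 10 without library 3. The erythroid-like share was 31.814% at clustering resolution 1.2, 45.971% as a mean over cells, 47.368% thinned and 70.93% without library 1. It was 32.255% when the set, the partners, the antigen processing genes and the interferon-induced genes were allowed among the clustering genes. Of the set, 0 genes then entered the 2000 variable genes, so that value does not reflect clustering on the set. The genes higher in monocyte-like cells numbered 5 without library 2 and 7 without library 3, and those lower in plasma-like cells 24 without library 3. A looser limit or fewer libraries can raise the calls of any gene. The share of all genes called at these settings is not given here, so these counts are not read as results about the set. The cause of the moves in share and count was not tested. Ratios were taken within each library, and no test was run on them. Depth limits the basophil-like and erythroid-like classes, with 229 and 272 catalytic UMIs.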
